A study of Mus musculus with 10 samples.

Results

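The metalloproteases that cut the matrix and the cell surface, and the TIMPs that block them, were compared between early and late cells of the distal tips of the mouse embryonic lung. Genes were taken by symbol: the matrix metalloproteases (*Mmp*), the ADAMs (*Adam*), the secreted ADAMTS proteases and ADAMTS-like proteins (*Adamts*, *Adamtsl*) and the 4 TIMPs, wherever a probe set named 1 gene. This gave 69 of the 17813 genes tested, made up of 18 MMPs, 27 ADAMs, 20 ADAMTS or ADAMTS-like genes and 4 TIMPs, and each of the 69 was read by 1 probe set. Expression was measured on Affymetrix mouse arrays, 5 for E11.5 and 5 for E17.5. Tips at E11.5 were dissected under the microscope after a brief dispase treatment. The E17.5 cells came from embryos whose mothers received tamoxifen at E16.5 (150 μg per gram of body weight), and GFP+ cells were sorted by flow cytometry after trypsin dissociation. Both groups are labelled *Id2-CreER; Rosa26R-fGFP*, in which tamoxifen turns on a lasting GFP label in cells that express *Id2*. The sort took some direct descendants of the tip along with it, and no epithelial surface marker is named for it in the sources used here. Stage and the way of isolation cannot be told apart in these samples.

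MMPs and ADAMs share a zinc-dependent catalytic site and are made as inactive precursors, many of which are activated by furin-like convertases. MMPs degrade collagens, elastin and proteoglycans, ADAMs mainly release the outer parts of membrane proteins such as growth factors, cytokines and Notch receptors, and ADAMTS proteases act on proteoglycans, procollagens and microfibrils. TIMPs bind the active site of these enzymes. In the developing lung, branching and later sac formation take place against a matrix that is continually remodelled, and much of the MMP, ADAMTS and TIMP RNA of the lung is made by mesenchymal, endothelial and immune cells beside the epithelium.

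Each value is a log2 signal of 1 probe set, so 1 unit is a 2-fold change. Each difference is the E17.5 mean minus the E11.5 mean, tested with limma across all genes, and calls were made at adjusted p under 0.05 (Benjamini-Hochberg). A probe set's signal also depends on its sequence, so levels were compared between stages and not between genes. The 25th percentile of all values in the table, a log2 signal of 4.62, was used to describe low signal, since no detection calls were used here, and folds measured from below it are uncertain. The arrays of a stage resembled each other (Pearson r over all probe sets 0.985 to 0.995 within a stage, 0.837 to 0.862 between stages). Markers of other cell types were measured in both groups and moved with stage. Of 12 macrophage markers 11 were higher, of 12 endothelial markers 11, and of 9 neutrophil markers 6 were higher and 1 was lower. The mean log2 signal of the macrophage list was 5.65 to 6.48 over the E11.5 arrays and 9.35 to 10.28 over the E17.5 arrays, and that of the endothelial list 5.46 to 6.45 and 8.98 to 10.83. Of 14 mesenchymal markers 7 were higher and 3 lower, and their mean was 7.19 to 8.16 and 8.38 to 9.46, and for 15 pan-epithelial markers it was 11.91 to 12.13 at E17.5, where 8 of them were higher and 4 lower than at E11.5. Of 9 tip progenitor markers, 3 were higher and 5 lower, while *Sox9* did not pass (difference -0.02) and *Id2* rose by 2.10. Other markers were higher at E11.5. The mean of 7 erythroid markers was 7.77 to 9.08 over the E11.5 arrays and 5.48 to 6.21 over the E17.5 arrays, with 4 of them lower at E17.5, among them the embryonic globin gene *Hbb-y* (from 12.62 to 4.79). Of 10 smooth muscle and pericyte markers 4 were higher and 4 lower at E17.5, and *Myh11*, *Cnn1*, *Actg2* and *Notch3* fell by 2.18, 1.78, 1.76 and 1.79. The part of these cell types in the differences below, rises and falls, was not tested. In such bulk samples a change in the share of a cell type and a change in RNA per cell cannot be told apart.

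A row of 9 neighbouring genes introduces the family, since these share a place on the chromosome and *Mmp8* alone among them was called. On chromosome 9, *Mmp13*, *Mmp12*, *Mmp1b*, *Mmp3*, *Mmp1a*, *Mmp10*, *Mmp8*, *Mmp20* and *Mmp7* follow each other in this order, with *Mmp27*, not analysed here, between *Mmp8* and *Mmp20*. They encode secreted proteases: collagenases (*Mmp1a*, *Mmp1b*, *Mmp8*, *Mmp13*), stromelysins (*Mmp3*, *Mmp10*), matrilysin (*Mmp7*), macrophage elastase (*Mmp12*) and the enamel protease (*Mmp20*). The 100 bases upstream of an annotated start of each gene are given from RefSeq (GRCm38.p6), read 5′ to 3′ on the gene's strand. Capitals mark an AP-1 motif (TGANTCA) and a TATA motif (TATAAA), where the stretch holds one.
Mmp13, chr9:7272414-7272513, plus strand: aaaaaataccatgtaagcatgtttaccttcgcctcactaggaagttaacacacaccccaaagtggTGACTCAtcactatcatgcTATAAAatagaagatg
Mmp12, chr9:7347274-7347373, plus strand: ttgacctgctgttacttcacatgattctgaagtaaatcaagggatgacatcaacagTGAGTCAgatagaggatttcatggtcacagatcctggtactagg
Mmp1b, chr9:7388027-7388126, minus strand: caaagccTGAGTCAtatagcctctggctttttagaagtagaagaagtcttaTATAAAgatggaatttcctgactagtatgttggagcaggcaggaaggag
Mmp3, chr9:7445722-7445821, plus strand: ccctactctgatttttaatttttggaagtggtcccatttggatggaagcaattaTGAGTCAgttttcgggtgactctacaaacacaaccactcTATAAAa
Mmp1a, chr9:7464041-7464140, plus strand: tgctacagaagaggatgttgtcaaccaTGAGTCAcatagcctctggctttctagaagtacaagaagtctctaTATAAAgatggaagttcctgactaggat
Mmp10, chr9:7502242-7502341, plus strand: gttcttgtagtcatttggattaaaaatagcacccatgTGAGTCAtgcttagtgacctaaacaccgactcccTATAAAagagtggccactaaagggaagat
Mmp8, chr9:7558329-7558428, plus strand: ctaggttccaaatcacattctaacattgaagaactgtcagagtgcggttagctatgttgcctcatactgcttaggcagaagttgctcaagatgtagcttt
Mmp20, chr9:7628131-7628230, plus strand: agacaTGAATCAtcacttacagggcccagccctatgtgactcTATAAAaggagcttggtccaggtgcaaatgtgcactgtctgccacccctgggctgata
Mmp7, chr9:7691990-7692089, plus strand: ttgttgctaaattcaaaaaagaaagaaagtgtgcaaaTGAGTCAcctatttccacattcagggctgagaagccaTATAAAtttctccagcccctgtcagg
An AP-1 match was found in the window from 250 bases before to 50 bases after an annotated start for 8 of the 9 genes, and *Mmp8* was the gene without one. In the printed stretches the match began 35 bases before the start in *Mmp13*, 95 before it in *Mmp20* and at distances between these in the others. *Mmp12* and *Mmp7* have 2 windows in the table, and the printed one holds the match. Of all 32851 promoter windows of the table, 7.81% held an AP-1 match and 13.6% a TATA match, with both strands searched. For *Mmp8* the TATA letters lie on the opposite strand and run across the start. The 11 windows of these genes had a median GC content of 42.7%, against 64.0% for the 34 windows of the other metalloproteases and TIMPs in the table and 52.7% for all windows. Of the 45 windows of the metalloproteases and TIMPs, which cover 40 genes, 24.4% held an AP-1 match and 28.9% a TATA match, and the genes outside the cluster with an AP-1 match were *Adam19*, *Adam1b* and *Adam25*. A PEA3 motif (AGGAAG) was found in 40.0% of these windows and 35.4% of all windows. These matches describe the letters only.

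Of the 9 neighbours 1, *Mmp8*, was called, while 36.9% of all genes tested were called higher and 31.5% lower. *Mmp8* encodes the collagenase stored in neutrophil granules. Its log2 signal was 4.05, 4.41, 3.95, 3.71 and 3.85 in E11.5 replicates 1 to 5 and 8.72, 8.45, 7.93, 6.82 and 7.22 in E17.5 replicates 1 to 5. Every E17.5 array lay above every E11.5 array, and the E17.5 arrays spread over a wide range. The difference was 3.83 (standard error 0.32, 14.3-fold, adjusted p = 3.7e-07), measured from E11.5 signals that all lay below the 25th percentile, so the fold is uncertain. Of the other 8 genes, *Mmp13*, *Mmp12*, *Mmp1b*, *Mmp1a*, *Mmp20* and *Mmp7* were below the 25th percentile in both stages, and *Mmp3* and *Mmp10* below the median, so a lack of readable signal and a lack of change cannot be told apart for them. For these 8 the arrays of the stages overlapped and the differences ran from -0.11 for *Mmp3* to 0.51 for *Mmp12*. *Mmp12* lay closest to the threshold (95% interval 0.02 to 1.00, adjusted p = 0.06), and it passed with quantile normalization (adjusted p = 0.045), with a replicate block (adjusted p = 0.0093), with trended and robust eBayes (adjusted p = 0.048) and without E11.5 replicate 2, E17.5 replicate 3 or E17.5 replicate 5. *Mmp7* passed without E11.5 replicate 3 (difference 0.37, adjusted p = 0.004). The intervals of the other 7 reached no further than -0.42 and 0.54. *Mmp1a* and *Mmp1b* are close copies, and whether their probes tell them apart was not tested.

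**Figure D1:**
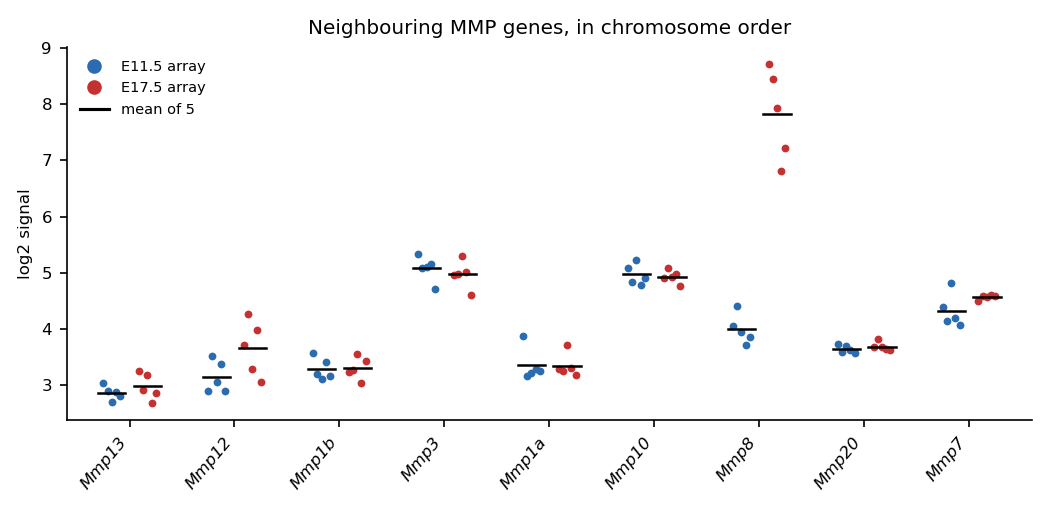
Log2 signal of the 9 neighbouring MMP genes in chromosome order, with 1 point per array (blue E11.5, red E17.5, 5 each) and a black line at each mean. The *Mmp8* arrays separate by stage, at 3.71 to 4.41 and 6.82 to 8.72, while those of its neighbours overlap.

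*Mmp9*, a gelatinase that cuts type IV collagen and is likewise made by neutrophils and macrophages, rose too. It measured 5.52, 5.47, 5.34, 5.54 and 5.23 at E11.5 and 7.05, 6.74, 6.31, 5.45 and 5.78 at E17.5. E17.5 replicate 4 lay within the E11.5 range, and the remaining 4 lay above it. The difference was 0.85 (standard error 0.26, 1.80-fold, adjusted p = 0.012). The mean of the neutrophil markers was 4.62, 4.45, 5.17, 5.33 and 5.57 at E11.5 and 7.75, 7.56, 7.43, 6.66 and 6.95 at E17.5. At E17.5 it was highest in replicate 1 and lowest in replicate 4, the same order of arrays as for *Mmp8* and *Mmp9*. The macrophage list measured 10.23, 10.28, 10.23, 9.35 and 9.66 at E17.5. It too was lowest in replicate 4, followed by replicate 5, so low values there were not particular to the neutrophil list. Within the neutrophil list the granule and cytosol genes *S100a8* and *S100a9* rose by 6.22 and 6.03. *Ngp*, *Ltf* and *Camp* rose by 3.07, 2.71 and 2.19, while *Mpo* fell by 1.30. The elastase gene *Elane* (difference -0.10) and the chemokine receptor gene *Cxcr2* (0.47) did not pass. The match of array orders was looked for after the values were seen, among 276 pairs of 23 genes and 12 marker lists, of which 10 had the same order, and it rests on 5 arrays.

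**Figure D2:**
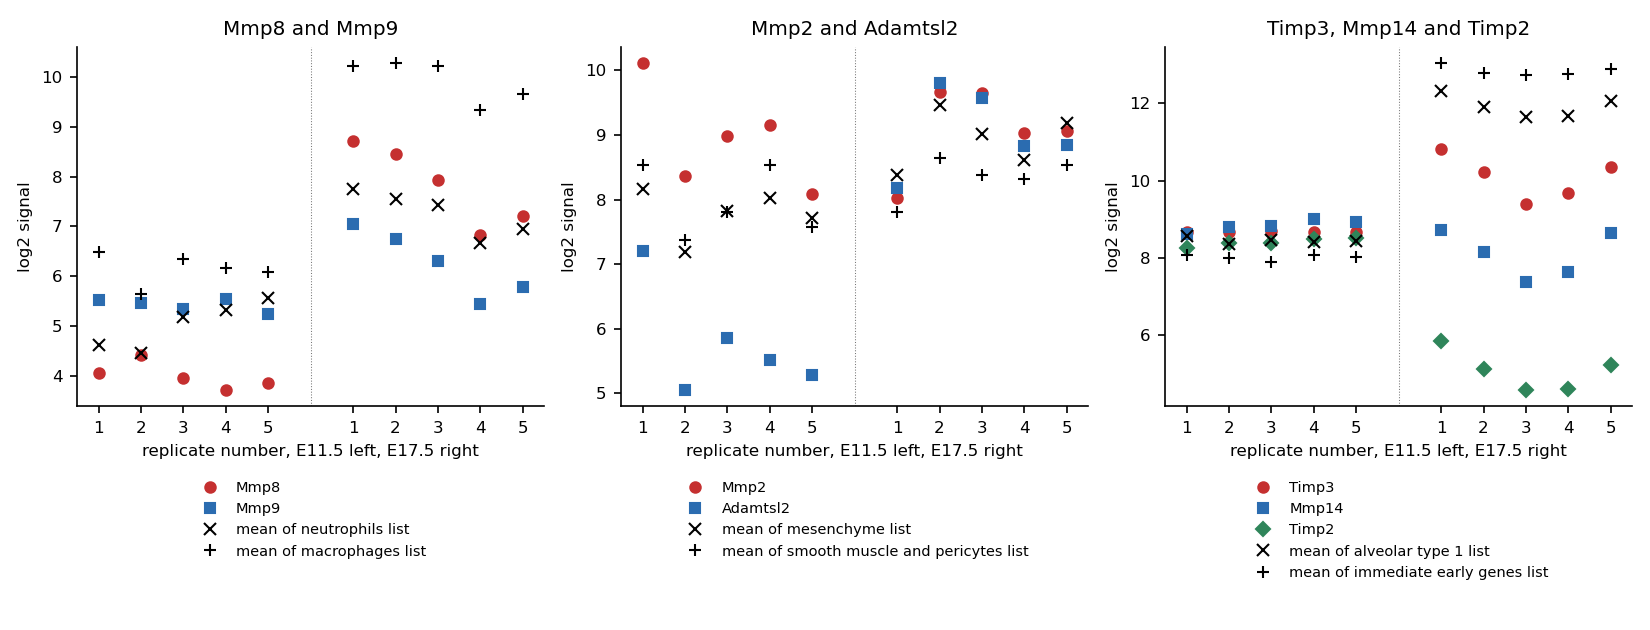
Log2 signal per array (E11.5 replicates 1 to 5 left of the dotted line, E17.5 replicates 1 to 5 right of it) for selected genes in coloured symbols and the mean of marker lists in black. At E17.5 *Mmp8*, *Mmp9* and the neutrophil list are highest in replicate 1 and lowest in replicate 4, while *Timp3*, *Mmp14* and *Timp2* are highest in replicate 1 and lowest in replicate 3, as is the alveolar type 1 list. The macrophage list is also lowest in replicate 4.

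Across the 69 genes the response was mixed. At E17.5, 28 (40.6%) were higher, against 36.9% of all genes tested, and 18 (26.1%) were lower, against 31.5% of all genes. The remaining 23 did not pass. By at least 2-fold, 19 genes were higher (27.5%, all genes 24.2%) and 9 of the 69 were lower (all genes 16.3%). All E17.5 arrays lay above all E11.5 arrays for 26 genes (37.7%, all genes 32.3%) and below them for 13 (18.8%, all genes 26.3%). The median difference was 0.23, and 0.03 over all genes. The background itself moved with the scaling. Quantile normalization gave 40.6% of the 69 genes higher and 27.5% lower, against 31.9% and 39.0% of all genes, and median centring gave 37.7% and 27.5%, against 33.2% and 36.9%. The families differed in their counts, which were not tested against each other: 13 of 20 ADAMTS and ADAMTS-like genes were higher and 4 lower, 10 of 27 ADAMs were higher and 7 lower, 3 of 18 MMPs were higher and 6 lower, and 2 of 4 TIMPs were higher and 1 lower. Of the 69, 21 (30.4%, all genes 17.2%) were below the 25th percentile of all values in both stages, and 16 of these 21 did not pass.

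**Figure D3:**
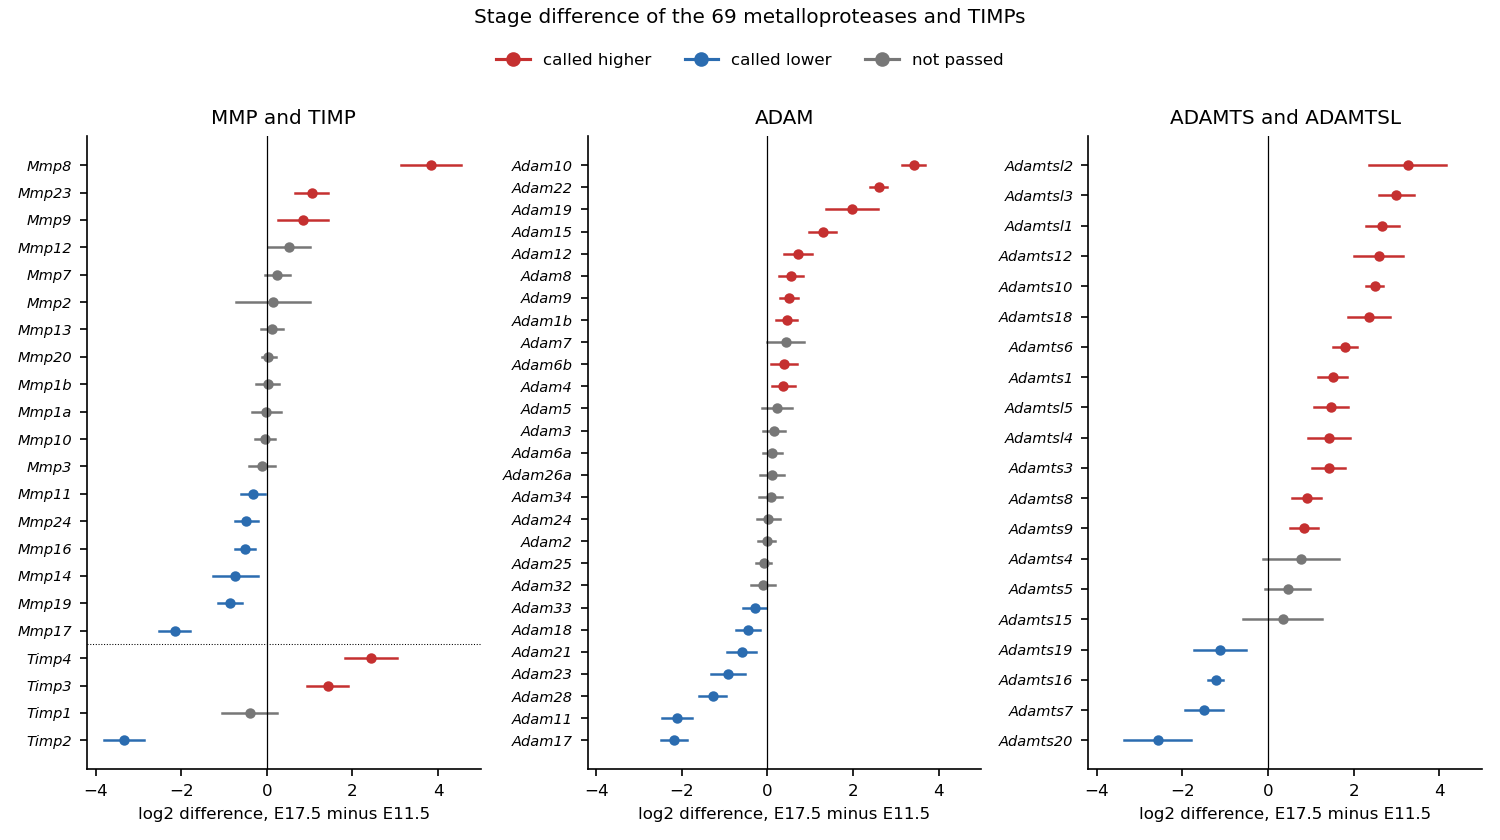
Log2 difference (E17.5 minus E11.5) of all 69 genes by family, with the 95% interval from limma, 5 arrays per stage. Red marks genes called higher, blue genes called lower and grey genes that did not pass; 13 of the 20 genes in the right panel are red.

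The TIMPs moved in different directions. *Timp2*, which inhibits MMPs and also helps the membrane-bound MMP14 to activate MMP2, had the largest fall of the 69 genes. It measured 8.25, 8.39, 8.38, 8.49 and 8.52 at E11.5 and 5.85, 5.12, 4.57, 4.59 and 5.21 at E17.5, with no overlap. The difference was -3.34 (standard error 0.21, 10.1-fold lower, adjusted p = 2.5e-08). *Timp3*, a matrix-bound inhibitor that also acts on ADAM17 and ADAMTS proteases, was nearly constant at E11.5, at 8.68, 8.68, 8.69, 8.66 and 8.66. At E17.5 it measured 10.83, 10.22, 9.40, 9.67 and 10.34, all above the E11.5 arrays. It rose by 1.42 (standard error 0.22, 2.68-fold, adjusted p = 9.6e-05). *Timp4*, best known from the heart, was low in all E11.5 arrays, at 4.01, 3.90, 3.84, 3.98 and 3.85. It reached 5.30, 6.75, 6.28, 7.20 and 6.21 at E17.5, again with no overlap. This was a rise of 2.44 (standard error 0.28, 5.41-fold, adjusted p = 5.7e-06), with an uncertain fold, since every E11.5 array lay below the 25th percentile. *Timp1*, an inducible inhibitor, measured 8.62, 7.78, 8.12, 8.53 and 8.15 at E11.5 and 7.24, 8.18, 7.85, 7.14 and 8.80 at E17.5. These arrays overlapped, and the difference of -0.40 (standard error 0.29, 95% interval -1.04 to 0.24) did not pass (adjusted p = 0.25). The *Timp1* call depended on E17.5 replicate 5, the highest array: without it the difference was -0.64 (adjusted p = 0.034), and with quantile normalization it was -0.74 (adjusted p = 0.028). In the RefSeq annotation *Timp1*, *Timp3* and *Timp4* lie inside the synapsin genes *Syn1*, *Syn3* and *Syn2*, while *Timp2* lies between *Usp36* and *Cep295nl*.

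All 4 membrane-type MMPs measured, which are anchored to the cell surface, were lower at E17.5, against 31.5% of all genes. Their median difference was -0.62 (all genes 0.03). They were also lower with quantile normalization and with median centring. *Mmp17*, held by a lipid anchor, fell furthest. It measured 8.28, 8.49, 8.54, 8.20 and 7.93 at E11.5 and 5.80, 5.89, 6.22, 6.63 and 6.15 at E17.5, with the stages well apart (difference -2.15, standard error 0.17, 4.44-fold lower, adjusted p = 1.7e-07). *Mmp14*, the collagenase of the cell surface that activates MMP2, measured 8.62, 8.80, 8.83, 9.01 and 8.92 at E11.5 and 8.71, 8.16, 7.38, 7.63 and 8.64 at E17.5. Its stages overlapped, since E17.5 replicates 1 and 5 lay within the E11.5 range. The difference was -0.73 (standard error 0.24, 1.66-fold lower, adjusted p = 0.016). *Mmp16* and *Mmp24*, each with stage means below the median of all values, fell by 0.51 and 0.48. The *Mmp24* arrays of the stages overlapped. At E17.5 *Mmp14*, *Timp2* and *Timp3* shared their order of arrays, with replicate 1 highest, then 5, 2, 4 and 3. The mean of 8 alveolar type 1 markers had that order too, at 12.33, 11.90, 11.64, 11.67 and 12.06, and so had the mean of 14 immediate early genes, at 13.04, 12.79, 12.73, 12.77 and 12.90. All of these alveolar type 1 and immediate early genes were higher at E17.5. Their part in the 3 genes' values was not tested. These matches are among the 10 in 276 pairs looked at after the values were seen. Because both lists share this order, each of the 3 genes is counted with both.

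*Mmp2*, the gelatinase that the MMP14 and TIMP2 proteins act on, did not pass. It measured 10.11, 8.36, 8.99, 9.16 and 8.09 at E11.5 and 8.02, 9.67, 9.65, 9.03 and 9.06 at E17.5. The spread within a stage (SD 0.79 and 0.67) exceeded the difference of 0.14 (standard error 0.39, 95% interval -0.72 to 1.01, adjusted p = 0.77). *Mmp2* is best known from mesenchymal cells. The mean of 14 mesenchymal markers was 8.16, 7.19, 7.82, 8.03 and 7.72 at E11.5 and 8.38, 9.46, 9.02, 8.62 and 9.18 at E17.5. In both readings E11.5 replicate 1 was the highest array of its stage and E17.5 replicate 1 the lowest. E17.5 replicate 1 was also the lowest of its stage for the smooth muscle and pericyte list (7.80). The full orders of arrays differed: at E11.5 *Mmp2* was lowest in replicate 5 (8.09) and the mesenchymal list in replicate 2 (7.19). The part of mesenchymal cells in the *Mmp2* values was not tested.

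The remaining MMPs, *Mmp23*, *Mmp19* and *Mmp11*, were all called: 1 rose and 2 fell. Over all genes 36.9% rose and 31.5% fell, and so few MMPs cannot be set against these shares. *Mmp23*, an unusual MMP with a transmembrane precursor, measured 10.66, 10.31, 10.19, 10.57 and 10.22 at E11.5 and 11.06, 11.40, 11.67, 11.94 and 11.13 at E17.5. Its stages did not overlap (difference 1.05, standard error 0.17, 2.07-fold, adjusted p = 0.00014). *Mmp19*, a broadly acting secreted MMP, measured 5.83, 5.88, 5.67, 5.70 and 5.67 at E11.5 and 4.83, 5.21, 5.14, 4.57 and 4.72 at E17.5. All its E17.5 arrays were below those of E11.5 (difference -0.86, standard error 0.13, 1.81-fold lower, adjusted p = 6.1e-05). *Mmp11*, stromelysin 3, changed little, with a mean difference of -0.32 (adjusted p = 0.034). Its call was lost in 8 of the 10 fits that left out 1 array, with adjusted p up to 0.079, reached without E11.5 replicate 1.

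**Figure D4:**
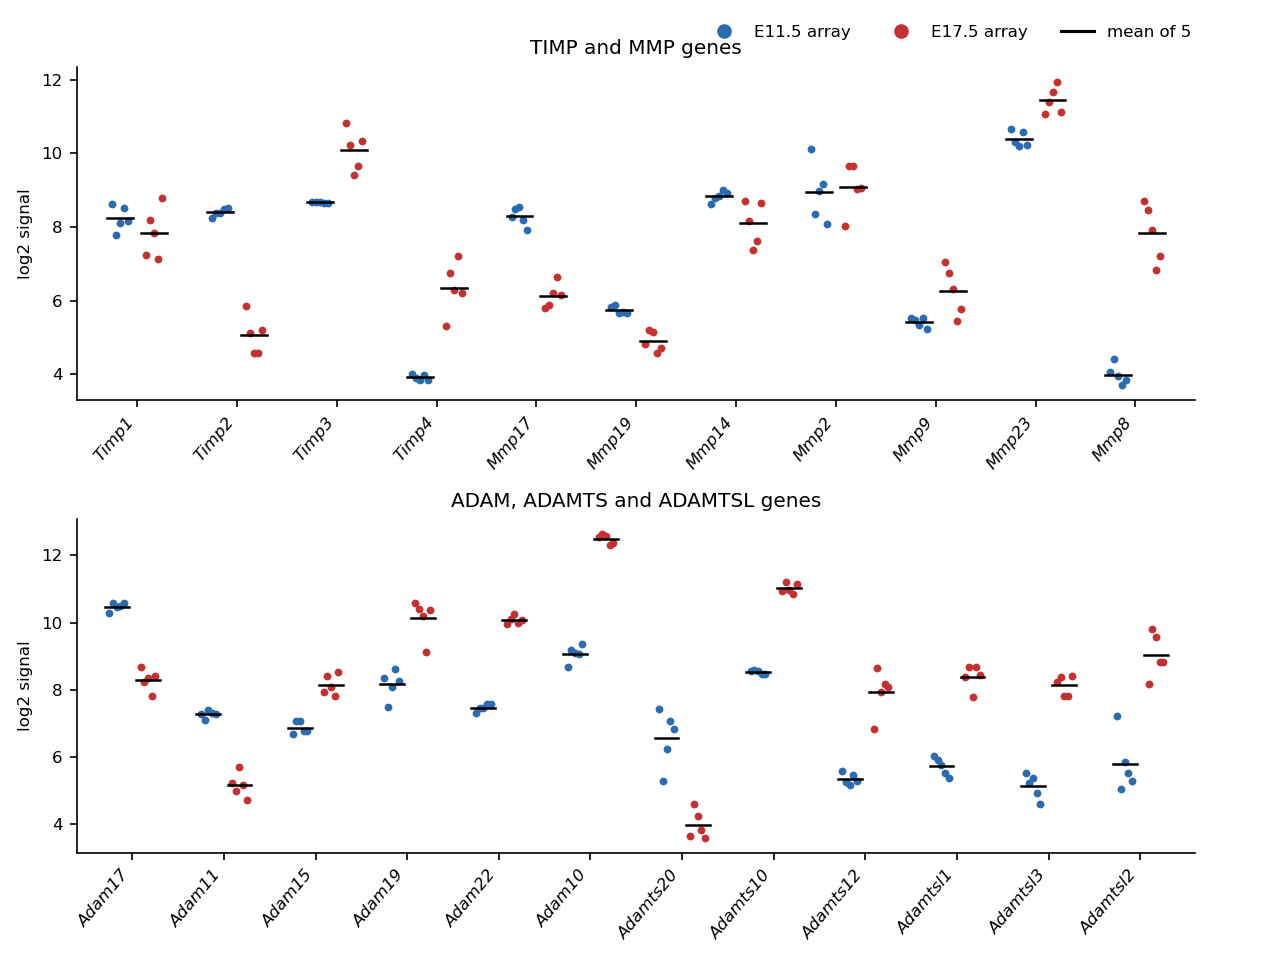
Log2 signal per array of the TIMPs, the leading MMPs (top) and the leading ADAM, ADAMTS and ADAMTS-like genes (bottom), with blue points for E11.5, red points for E17.5 and black lines at the mean of 5 arrays. *Adam10* and *Adam17* move in opposite directions, from 9.08 to 12.49 and from 10.48 to 8.30, and the 3 *Adamtsl* genes shown rise without overlap.

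The main sheddases of the ADAM family, *Adam10* and *Adam17*, changed in opposite directions. ADAM10 cuts Notch receptors, cadherins and the amyloid precursor, and ADAM17 releases TNF and ligands of the EGF receptor. *Adam10* measured 8.67, 9.18, 9.10, 9.06 and 9.37 at E11.5 and 12.55, 12.62, 12.59, 12.32 and 12.38 at E17.5. The stages lay far apart, with little spread at E17.5 (difference 3.42, standard error 0.13, 10.7-fold, adjusted p = 1.7e-10). *Adam17* measured 10.29, 10.57, 10.46, 10.48 and 10.58 at E11.5 and 8.67, 8.23, 8.35, 7.83 and 8.41 at E17.5. Again no array overlapped, here with E17.5 below (difference -2.18, standard error 0.14, 4.53-fold lower, adjusted p = 2.7e-08). Each gene was read by 1 probe set. Among the 167 genes of the table with several probe sets, the differences of a gene's probe sets lay over 1 unit apart for 51.5% and over 2 apart for 28.1%. Their upstream stretches are shown because these genes contrast with the MMP cluster in base composition as well (RefSeq, GRCm38.p6).
Adam10, chr9:70678882-70678981, plus strand: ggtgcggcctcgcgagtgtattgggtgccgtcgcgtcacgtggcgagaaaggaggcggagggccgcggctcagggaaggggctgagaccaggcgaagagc
Adam17, chr12:21373633-21373732, minus strand: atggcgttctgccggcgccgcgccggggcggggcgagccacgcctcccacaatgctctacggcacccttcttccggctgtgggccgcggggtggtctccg
No AP-1 or TATA letters were found in either window, and the GC content of the windows was 73.3% for *Adam10* and 70.0% for *Adam17*.

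Of 9 ADAMs with a catalytic site, *Adam10* and *Adam17* included, 6 were higher and 3 were lower, against 36.9% and 31.5% of all genes. ADAMs known mainly from testis, sperm and the epididymis are counted apart below. *Adam19*, which acts on neuregulins, measured 8.34, 7.50, 8.09, 8.63 and 8.25 at E11.5 and 10.59, 10.40, 10.21, 9.13 and 10.39 at E17.5. E17.5 replicate 4 stood below the rest of its stage but above every E11.5 array (difference 1.98, standard error 0.28, 3.95-fold, adjusted p = 3.8e-05). *Adam15*, which carries an integrin-binding motif and is abundant in endothelium, measured 6.70, 7.07, 7.07, 6.77 and 6.77 at E11.5 and 7.94, 8.41, 8.10, 7.83 and 8.52 at E17.5, with no overlap (difference 1.29, standard error 0.15, 2.44-fold, adjusted p = 5.9e-06). The endothelial list had the same order of E17.5 arrays as *Adam15* and *Timp1*, at 9.43, 10.57, 9.77, 8.98 and 10.83. These are among the 10 matches in 276 pairs looked at after the values were seen, and the endothelial part was not tested. Smaller rises were found for *Adam12* (0.72), *Adam8*, a leukocyte ADAM (0.55), and *Adam9* (0.51). The calls of *Adam12* and *Adam9* were lost with quantile normalization, which gave differences of 0.13 (adjusted p = 0.48) and -0.03 (adjusted p = 0.78). *Adam28* fell by 1.28, with means below the 25th percentile in both stages. *Adam33*, with means below the median of all values in both stages, fell by 0.30 (adjusted p = 0.046). Its call was lost in 7 of the 10 fits that left out 1 array, as for example without E11.5 replicate 3 (difference -0.20, adjusted p = 0.1).

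The ADAMs without a catalytic site that act in neurons as receptors of LGI proteins also split. *Adam22* measured 7.32, 7.45, 7.45, 7.58 and 7.57 at E11.5 and 9.95, 10.10, 10.25, 9.98 and 10.07 at E17.5. This was the difference with the smallest adjusted p of the 69 genes (2.60, standard error 0.09, 6.04-fold, adjusted p = 8.2e-11). *Adam11* went the other way, from 7.27, 7.10, 7.41, 7.30 and 7.29 to 5.23, 4.99, 5.72, 5.17 and 4.72. No array of one stage lay among those of the other (difference -2.11, standard error 0.16, 4.32-fold lower, adjusted p = 1.2e-07). *Adam23* fell by 0.92.

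Of 15 ADAMs known mainly from testis, sperm and the epididymis, 13 lay below the 25th percentile in both stages (all genes 17.2%). Of the 15, 10 did not pass, 3 were higher and 2 were lower, against 36.9% and 31.5% of all genes higher and lower. The calls were small: *Adam1b* (0.45), *Adam6b* (0.39) and *Adam4* (0.37) were higher, and *Adam21* and *Adam18* fell by 0.60 and 0.45. *Adam6b* and *Adam4* did not pass with median centring (adjusted p = 0.11 and 0.15), and *Adam6b* lost its call in 5 of the fits that left out 1 array. Those that did not pass were *Adam7* (0.43), *Adam5* (0.23), *Adam3* (0.16), *Adam6a* (0.12), *Adam26a* (0.11), *Adam34* (0.08), *Adam24* (0.02), *Adam2* (-0.01), *Adam25* (-0.09) and *Adam32* (-0.11). *Adam18*, *Adam3*, *Adam5*, *Adam32* and *Adam9* follow each other on chromosome 8, with *Adam18* called lower and *Adam9* higher. Several of these genes are close copies of each other, such as *Adam6a* and *Adam6b*, and whether their probes tell them apart was not tested.

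The ADAMTS-like genes measured were all called higher. These encode secreted proteins built like ADAMTS proteases but without the protease domain, several of which bind fibrillin microfibrils. There were 5 of them, against 36.9% of all genes called higher, with a median difference of 2.67 (all genes 0.03), and each was also called higher with quantile normalization and with median centring. *Adamtsl2*, which binds fibrillin and a latent TGF-β binding protein, measured 7.21, 5.05, 5.86, 5.52 and 5.29 at E11.5 and 8.18, 9.80, 9.57, 8.83 and 8.84 at E17.5. The stages did not overlap, though E11.5 replicate 1 and E17.5 replicate 1 lay nearest to each other (difference 3.26, standard error 0.41, 9.56-fold, adjusted p = 1.4e-05). At E11.5 *Adamtsl2* and the mesenchymal list were both highest in replicate 1 (list 8.16) and lowest in replicate 2 (7.19). At E17.5 both were lowest in replicate 1 (list 8.38) and highest in replicate 2 (9.46). The full orders of arrays differed, and the part of mesenchymal cells in the *Adamtsl2* values was not tested. *Adamtsl3* measured 5.53, 5.23, 5.38, 4.93 and 4.60 at E11.5 and 8.23, 8.39, 7.82, 7.82 and 8.42 at E17.5 (difference 3.00, standard error 0.19, 8.02-fold, adjusted p = 2.5e-08). *Adamtsl1*, or punctin, measured 6.02, 5.93, 5.76, 5.53 and 5.39 at E11.5 and 8.39, 8.69, 7.79, 8.68 and 8.44 at E17.5 (difference 2.67, standard error 0.18, 6.37-fold, adjusted p = 4.7e-08). For both genes every E17.5 array exceeded the E11.5 arrays by over 1 unit. *Adamtsl5* and *Adamtsl4* rose by 1.47 and 1.43.

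Both fibrillin-related proteases, *Adamts10* and *Adamts6*, were higher, against 36.9% of all genes. *Adamts10*, which is altered in an inherited disorder of microfibrils, measured 8.57, 8.58, 8.57, 8.46 and 8.47 at E11.5 and 10.93, 11.21, 10.98, 10.86 and 11.16 at E17.5. The spread within a stage was small beside the difference of 2.49 (standard error 0.09, 5.63-fold, adjusted p = 1.3e-10). *Adamts6* rose by 1.81, and *Adamts3*, which trims procollagen and processes VEGF-C, by 1.42.

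The proteases that cut cartilage oligomeric matrix protein went opposite ways. *Adamts12* measured 5.59, 5.25, 5.18, 5.48 and 5.28 at E11.5 and 6.85, 8.64, 7.95, 8.17 and 8.09 at E17.5. E17.5 replicate 1 was the lowest of its stage and still above all E11.5 arrays (difference 2.59, standard error 0.26, 6.0-fold, adjusted p = 2.3e-06). The mesenchymal list was likewise lowest in E17.5 replicate 1 (8.38) and highest in E17.5 replicate 2 (9.46). At E11.5 the lowest arrays differed, and the part of mesenchymal cells was not tested. *Adamts7* fell by 1.5 (adjusted p = 3.1e-05).

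Among the 7 proteases of the versican and aggrecan group, 3 were higher and 1 was lower, against 36.9% and 31.5% of all genes. *Adamts20*, a versicanase known from the coat pigment of mice, fell. It measured 7.44, 5.29, 6.23, 7.07 and 6.85 at E11.5 and 3.67, 4.61, 4.25, 3.84 and 3.61 at E17.5, without overlap (difference -2.58, standard error 0.36, 5.98-fold lower, adjusted p = 3.7e-05). Its E17.5 mean of 4.00 lay below the 25th percentile, so this fold is uncertain. *Adamts1*, a versicanase induced by inflammation, rose by 1.51, its relative *Adamts9* by 0.84 and *Adamts8* by 0.90. The *Adamts8* means lay below the 25th percentile in both stages. The aggrecanase genes *Adamts4* and *Adamts5* (differences 0.78 and 0.46, adjusted p = 0.11 for each) and *Adamts15* (0.34, adjusted p = 0.5) did not pass. *Adamts4* and *Adamts5* passed without E17.5 replicate 1, with differences of 1.00 (adjusted p = 0.046) and 0.61 (adjusted p = 0.034). For *Adamts4* and *Adamts15* E11.5 replicate 2 was the lowest array of its stage (5.83 and 7.08) and E17.5 replicate 2 the highest (8.41 and 10.04). The mesenchymal, macrophage, smooth muscle and mesothelial lists were likewise lowest in E11.5 replicate 2 (7.19, 5.65, 7.38 and 6.99) and highest in E17.5 replicate 2 (9.46, 10.28, 8.65 and 9.0), and their part was not tested. *Adamts1* lies beside *Adamts5* on chromosome 16, and *Adamts8* beside *Adamts15* on chromosome 9. Of the other ADAMTS genes, *Adamts18* rose by 2.35, and *Adamts16* and *Adamts19* fell by 1.22 and 1.12. The E17.5 means of *Adamts16* (3.42) and *Adamts19* (4.45) lay below the 25th percentile, so these folds are uncertain. The *Adamts19* arrays of the stages overlapped.

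Other genes that control or are targets of these enzymes were read from lists, whose counts stand against 36.9% of all genes higher and 31.5% lower. In a list of 9 further protease inhibitors and related proteoglycans, 6 genes were higher and 3 were lower. Not all of them are established inhibitors of these metalloproteases, and their effect on the enzymes was not tested. Of the 6, *Pzp* and *Spock1* had means below the 25th percentile in both stages. *Spock2*, a testican proteoglycan, rose 34.8-fold and *A2m*, the protease-trapping α2-macroglobulin, 4.94-fold, while *Sfrp1*, *Tfpi2* and *Spock3* were lower (log2 differences -2.52, -2.33 and -1.47). The E17.5 means of *Sfrp1* (4.27) and *Spock3* (3.24) lay below the 25th percentile, so the sizes of their falls are uncertain. The membrane-anchored inhibitor gene *Reck* was among those that rose, by 0.39. Of 15 genes of plasminogen activation, a cascade that activates MMP precursors, 10 (all genes 36.9%) were higher. Of these 10, *Plau*, *Plg* and *Klkb1* had means below the 25th percentile in both stages, with differences of 0.34, 0.22 and 0.48. The plasminogen-binding pair *Anxa2* and *S100a10* rose 161-fold and 16.4-fold, the urokinase receptor gene *Plaur* 12.9-fold and *Tmprss2*, a protease of the epithelial surface, 4.0-fold. *Plat*, tissue plasminogen activator, was the gene that fell, by 1.36, and with quantile normalization or median centring 2 genes of this list were lower.

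Of 7 proprotein convertases, which cut the precursors of many ADAMs and MMPs, 4 were higher and 1 was lower. *Pcsk5* rose 5.33-fold, *Pcsk7* by 0.75, *Pcsk1* by 0.68 and *Furin* by 0.48, and *Mbtps1* fell by 1.42. With quantile normalization 2 of the 7 were higher and 2 lower, and *Furin* (0.07, adjusted p = 0.55) and *Pcsk7* (0.23, adjusted p = 0.068) did not pass. Of 14 partners of ADAM10 and ADAM17, 8 were higher and 2 lower, with 5 lower under quantile normalization and 4 under median centring. *Rhbdf2*, a rhomboid-like protein that carries ADAM17 to the surface, rose 4.96-fold, and *Tspan15*, a tetraspanin that binds ADAM10, 4.17-fold. Among subunits of γ-secretase, which cuts the stubs left by ADAM10, *Ncstn* rose 4.58-fold and *Aph1a* fell by 2.14. *Tspan33*, another ADAM10-binding tetraspanin, fell by 1.65.

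Of 29 substrates shed by ADAM10 or ADAM17, 17 were higher and 7 lower (all genes 36.9% and 31.5%). The EGF receptor ligand *Ereg* rose 158-fold from an E11.5 mean of 4.02, below the 25th percentile, so that its fold is uncertain, the amyloid precursor gene *App* 34.5-fold and the hyaluronan receptor gene *Cd44* 26.8-fold, while *Notch2* fell by 3.51. Of 27 matrix substrates, 12 were higher and 7 lower, near the shares of all genes (36.9% and 31.5%). *Fbln5*, which is needed for elastic fibres, rose 79.7-fold, *Tnc* 17.1-fold and *Bgn* 7.14-fold, and *Col2a1*, the cartilage collagen, fell by 6.57. Of 15 astacin-type and membrane metallopeptidases, 7 were higher, led by *Dpep1* (10.5-fold) and *Phex* (9.43-fold, uncertain, from an E11.5 mean of 4.30). *Bmp1*, the procollagen C-proteinase (6.19-fold), and *Enpep* (3.44-fold) came next. In this list 2 were lower, *Ece1* by 0.75 and *Mep1a* by 0.41, the latter with means below the 25th percentile in both stages. Of 16 inducers and regulators of MMP genes, 13 were higher, among them the AP-1 genes *Fosb* (331-fold, uncertain, from an E11.5 mean of 3.93) and *Fos* (151-fold), the cytokine gene *Il1b* (58.4-fold) and *Ets2* (36.6-fold). The 2 lower genes were the ETS factors *Etv4* and *Etv5*, which fell by 1.87 and 1.35 and are targets of FGF signalling in the tip. Of the 14 immediate early genes, which respond to dissociation and sorting, all were higher at E17.5, and their part in these values was not tested.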

How the data were processed

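Mouse distal lung tip RNA was amplified and labelled with NuGEN kits by the authors, hybridised to Affymetrix mouse arrays and analysed with Bioconductor in R. The table deposited by the authors holds log2 signals of 21204 probe sets. How background was corrected and arrays normalized is not stated in the sources used here. The values ran from 2.47 to 15.03, from which the log2 scale was inferred. By the platform annotation, 17981 probe sets name 1 gene, while 514 with several genes and 2709 without a listed gene were left out, among them 1 probe set shared by *Adam1a* and *Mapkapk5*. The brightest probe set on average stood for a gene that had more than 1.

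Stages were compared with limma 3.58.1 (lmFit and eBayes) in R 4.3.3 over 17813 genes, with Benjamini-Hochberg adjustment. The steps were tested on simulated data. The labels call the arrays biological replicates. No source used here says whether they came from separate litters, so p-values measure the spread between these samples. Precision is limited by how many arrays there are. The genes and lists were chosen with earlier results of these data known. Every gene of the families may be named. Values in every array are given for the TIMPs, *Mmp2*, *Mmp14*, *Adam10*, *Adam17* and up to 6 called genes with the largest change per family, and up to 4 genes, or all of a count of 5 or fewer, are named from each list. *Reck*, *Serpinf2* and the comparisons of array order were chosen after their values were seen. The fits were repeated after quantile normalization or median centring, with other probe sets per gene, without dim genes, with a replicate block, with eBayes using trend and robust, with array weights and without each array in turn, which for the lists was added after the data were seen. Promoter windows (250 bases before to 50 after a start) came from a RefSeq table of GRCm38.p6, which held 40 of the 69 genes.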

Additional observations from a re-analysis of the deposited data

Results flagged for a closer look

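In 138 groups of 5 arrays (69 genes at 2 stages), 8 held an array set apart from the rest by Dixon's test, and chance gives about 6.9. At E17.5 these were *Adam19* replicate 4 (log2 signal 9.13, nearest other array 10.21), *Adam33* replicate 3 (4.82, nearest 4.58), *Adamts15* replicate 2 (10.04, nearest 8.61), *Adamtsl5* replicate 1 (7.02, nearest 6.27), *Mmp1a* replicate 3 (3.72, nearest 3.30) and *Mmp20* replicate 2 (3.81, nearest 3.67). At E11.5 they were *Adamts7* replicate 1 (8.57, nearest 7.90) and *Mmp1a* replicate 1 (3.88, nearest 3.28).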

How the results depend on the processing

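Leaving out genes with a mean signal below the median left 24 of the 69 genes, of which 15 were higher and 5 lower. By family, 1 MMP was then higher and 3 were lower, 1 ADAM was lower, 6 ADAMTS or ADAMTS-like genes were higher and 1 was lower, 1 TIMP was higher and 0 were lower, since *Timp2* fell below the limit, and the median difference was 0.81. No gene that remained changed its call. With quantile normalization 2 TIMPs were lower, and *Adam9* changed sign (-0.03, adjusted p = 0.78). The other counts by family stayed within 1.5 times under the other settings tried. Quantile normalization and median centring shifted the median difference of all genes by -0.26 and -0.13, and left 28 and 26 of the 69 genes higher and 19 lower in each case. The share of higher among the calls was 60.9% as deposited and 59.6% and 57.8% under them for these genes, and 53.9%, 45.0% and 47.4% over all genes, where more were then lower (6949 and 6576) than higher (5676 and 5920). Leaving out 1 array gave 1 to 2 lower TIMPs, the latter without E17.5 replicate 5, and changed 29 of the results for single genes, 20 of them to not passed and 9 to passed. *Adam5* passed without E17.5 replicate 1 (0.36, adjusted p = 0.019) and *Adam7* without E17.5 replicate 4 (0.53, adjusted p = 0.028). With a replicate block *Adam6b* (adjusted p = 0.054) and *Mmp11* (0.053) did not pass, and *Adam7* (0.027) and *Mmp12* (0.0093) passed. No pairing by replicate number was seen: the correlations of deviations between arrays with the same number ran from -0.294 to 0.074. No E11.5 array matched the E17.5 array of its own number best. With 5 arrays per stage, these correlations cannot exclude a pairing. The causes were not tested. Signals below the 25th percentile limit what can be read for 21 genes in both stages, among them the called genes *Adam28* and *Adamts8*. They also limit the folds of *Mmp8*, *Timp4*, *Adamts20*, *Adamts16* and *Adamts19*. With 1 probe set per gene, no second reading was available in the table used here.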
